A study of Bos taurus with 40 samples.

Results

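The circadian clock genes described here were chosen by gene symbol. Of 10 listed members, 7 are among the 13570 genes of the count tables: ARNTL, PER2, CRY1, NR1D1, DBP, BHLHE41 and NFIL3. CLOCK, PER1 and PER3 were not analysed here. The animals were 10 Korean cattle over 22 months of age, 5 female (cows) and 5 male (bulls), kept at experimental branches of a research institute. Pituitary gland, longissimus dorsi muscle, abdominal fat and liver were taken from each right after slaughter and sequenced as 1 RNA library per tissue and animal, or 40 libraries, to find genes that differ between the sexes. No treatment, genotype or castration is given for any animal. Cows and bulls are numbered separately from 1 to 5, so that cow 1 and bull 1 share only a number.

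The circadian clock is a feedback loop that runs once a day in nearly every cell of the body. ARNTL (also called BMAL1) pairs with CLOCK to switch on the period and cryptochrome genes, whose proteins return to the nucleus and repress ARNTL and CLOCK. NR1D1, a nuclear receptor that ARNTL and CLOCK also switch on, represses ARNTL and NFIL3, while DBP activates and NFIL3 represses a shared set of target genes, many of them metabolic. Because the RNA of these genes rises and falls over the day, a level measured once depends on the hour. The hour at which each animal was sampled is not given in the sources used here, so differences between animals and differences in sampling hour cannot be told apart.

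Reads counted on genes ranged from 5173092 to 19165864 per library (median 10005607), and each member had between 19 and 3300 reads in every library. Marker genes fitted the 4 tissue labels: the summed level of each tissue's own markers was higher in all 10 of its libraries than in any library of another tissue, although ADIPOQ, a defining marker of fat, was not analysed here. The library labelled liver of bull 3 went against its label. It held 1401 CPM (read counts scaled to a common library size) of XIST, an RNA made in females, and no read of the Y-linked genes DDX3Y, USP9Y and ZFY, while the other bulls' livers had at least 45.9 CPM of USP9Y. Its counts were closest to those of the liver of cow 4, with a mean chi-square of 15.9 per gene. The next closest pair of livers had 45.8, and the median over pairs of livers was 116.9. The libraries of bull 3 and cow 4 still differed by more than sampling noise. Whether they come from the same animal was not tested. The fat library of bull 5 also stood apart, with 1.78 CPM of USP9Y against at least 28.1 in the other bulls' fat. The main results are given with and without the liver library of bull 3. The main sex comparisons and counts of correlations are also given without the fat library of bull 5, but the contrasts between tissues are not. Within a tissue each library is a separate animal by its label. Over all tissues each animal gives 4 libraries. In bulk tissue, fewer cells of a type and less RNA per cell cannot be told apart.

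The 7 genes were present in all 4 tissues, and muscle was the tissue in which most of them had their highest level. Levels below are CPM after scaling by TMM (trimmed mean of M values) factors. Levels are compared only between samples for the same gene, since they are not corrected for gene length. Tissues were compared with edgeR's quasi-likelihood test with the animal as a block, because each animal gave all 4 tissues, and a gene was called at a Benjamini-Hochberg adjusted p below 0.05 over the 13148 genes tested. Of the 42 contrasts of a clock gene between a pair of tissues, 24 were called. Of all genes, 64.8% were called between liver and fat, 62.7% between liver and muscle, 65.3% between liver and pituitary, 60.6% between fat and muscle, 65.6% between fat and pituitary and 65.1% between muscle and pituitary. The members called numbered 1, 5, 3, 6, 2 and 7 in the same order. Cows and bulls overlapped in all 28 combinations of gene and tissue, also without the liver library of bull 3. Among genes with a mean of at least 1 CPM the sexes did not overlap for 0.554% in liver (1.46% without that library), 1.48% in fat, 1.99% in muscle and 1.44% in pituitary.

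**Figure D1:**
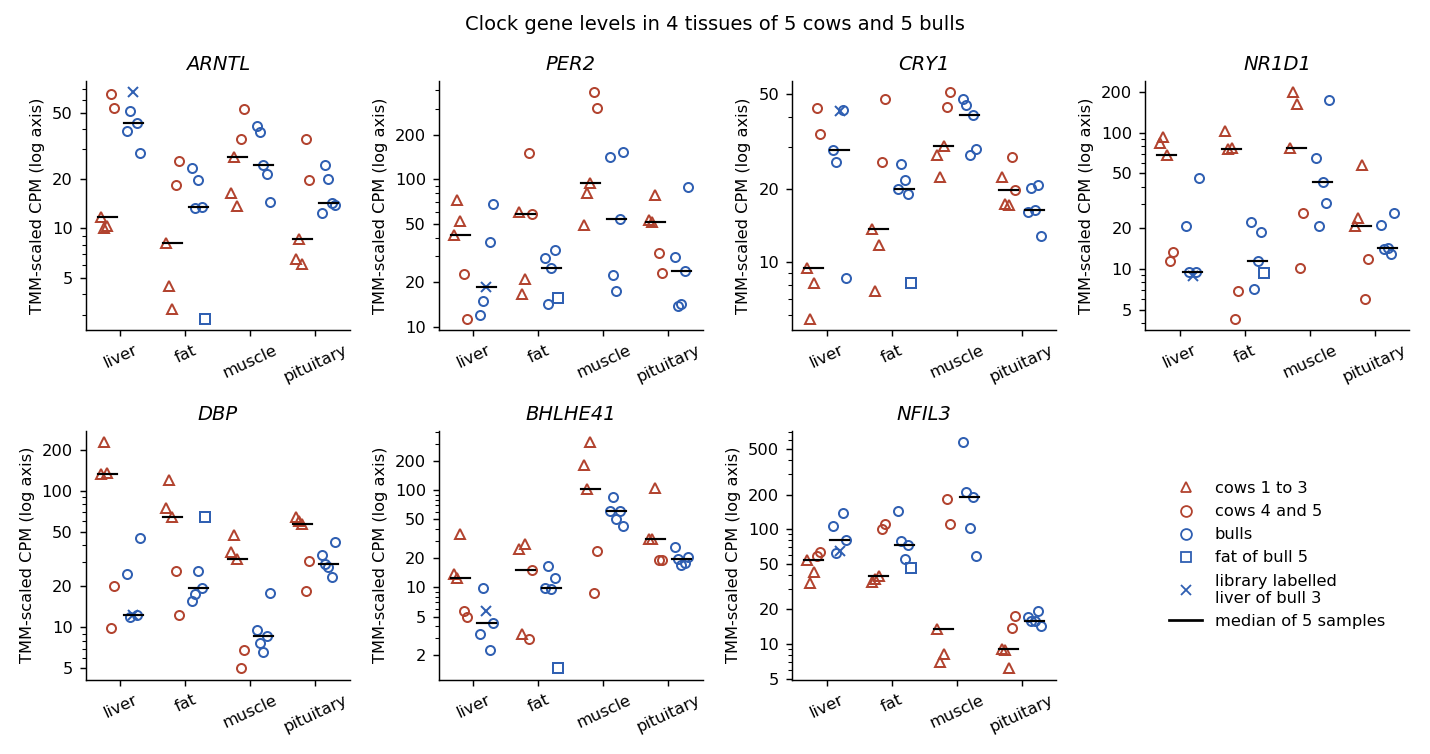
TMM-scaled CPM (log axis) of the 7 clock genes in liver, fat, muscle and pituitary, with cows in red and bulls in blue; each point is 1 library, black lines are medians of 5 samples, triangles are cows 1 to 3, the cross is the library labelled liver of bull 3 and the square the fat of bull 5. Cows and bulls overlapped in all 28 combinations of gene and tissue, and cows 1 to 3 lay together in most panels.

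ARNTL, the activator of the loop, was highest in liver, with a median of 41.1 CPM over the 10 libraries, followed by muscle (25.6), pituitary (14.0) and fat (13.5). Liver was above fat in all 10 animals, with a log2 fold change from liver to fat of -1.53 (SE 0.23, adjusted p = 8.26e-07), and above pituitary in all 10 animals, with -1.14 (SE 0.23, adjusted p = 5.15e-05). Muscle was above fat in all 10 animals (1.29, SE 0.23, adjusted p = 1.41e-05) and above pituitary in 9 (-0.91 from muscle to pituitary, SE 0.23, adjusted p = 0.000899). Liver and muscle did not differ beyond their spread (-0.24, SE 0.23, adjusted p = 0.392), and neither did fat and pituitary (0.38, SE 0.23, adjusted p = 0.149). Within liver the animals were far apart. Cows 1 to 5 had 11.7, 10, 10.4, 65.3 and 53.2 CPM, and bulls 1 to 5 had 38.9, 51.4, 66.4, 43.3 and 28.5. Cows 1 to 3 held the 3 lowest values and cows 4 and 5 lay among the bulls, so the sexes overlapped.

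PER2 and CRY1 encode repressors of the loop. Both were highest in muscle. PER2 had a median of 87.0 CPM in muscle, 30.7 in pituitary, 30.0 in liver and 27.0 in fat, and muscle was above liver by a log2 fold change of 1.55 (SE 0.38, adjusted p = 0.00179), above fat by 1.44 (SE 0.38, adjusted p = 0.00261), and above pituitary (-1.43 from muscle to pituitary, SE 0.38, adjusted p = 0.00291). The other 3 tissues did not differ in PER2 beyond their spread. PER2 in muscle also spread over a 22.2-fold range. Cows 1 to 5 had 49.2, 80.4, 93.6, 388 and 302 CPM, and bulls 1 to 5 had 142, 22.3, 17.5, 54.0 and 153. The highest values were those of cows 4 and 5 and the lowest those of bulls 2 and 3. In fat cow 4 was again the highest, with 60.3, 16.8, 21.0, 150 and 58.1 CPM in cows 1 to 5 and 29.0, 14.2, 24.9, 33.1 and 15.7 in bulls 1 to 5. In liver, by contrast, cows 4 and 5 were not high in PER2. Cows 1 to 5 had 41.8, 71.8, 52.0, 22.8 and 11.4 CPM there, and bulls 1 to 5 had 12.0, 15.0, 18.7, 37.3 and 68.1.

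CRY1 had a median of 35.5 CPM in muscle, 27.5 in liver, 19.6 in fat and 18.7 in pituitary. Muscle was above fat in all 10 animals (log2 fold change 1.01, SE 0.23, adjusted p = 0.000320), above pituitary in all 10 animals (-0.88 from muscle to pituitary, SE 0.23, adjusted p = 0.00123) and above liver in 8 of 10 (0.76, SE 0.23, adjusted p = 0.00518). The CRY1 contrast of muscle with liver was not called without bull 5 (0.52, adjusted p = 0.0569). Liver, fat and pituitary did not differ beyond their spread. In liver, cows 1 to 5 had 9.45, 5.82, 8.20, 43.4 and 33.9 CPM of CRY1, and bulls 1 to 5 had 29.0, 26.0, 42.4, 42.9 and 8.59. The liver values fell into a low set, cows 1 to 3 and bull 5, and a high set of the other 6. In pituitary the same gene varied only 2.13-fold, between 12.8 and 27.2 CPM.

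NR1D1, the nuclear receptor that represses ARNTL, had a median of 54.0 CPM in muscle, 17.2 in pituitary, 16.9 in liver and 15.0 in fat. Muscle was above each of the other tissues, with a log2 fold change of 1.19 from liver (SE 0.29, adjusted p = 0.000608), 1.44 from fat (SE 0.28, adjusted p = 8.08e-05) and -1.60 from muscle to pituitary (SE 0.29, adjusted p = 1.41e-05). The other 3 tissues were not told apart. Cows 1 to 5 had 84.3, 92.4, 68.3, 11.4 and 13.3 CPM in liver, and bulls 1 to 5 had 20.6, 9.49, 8.86, 9.44 and 46.2. In fat, the cows had 103, 76.1, 77.0, 4.29 and 6.85 CPM and the bulls 22.2, 7.09, 11.4, 18.5 and 9.27. Cows 1 to 3 were the 3 highest animals in both tissues, and in fat cows 4 and 5 were the lowest. In muscle, with 77.2, 197, 163, 10.1 and 25.6 CPM in the cows and 64.6, 20.7, 43.4, 30.3 and 175 in the bulls, bull 5 joined cows 2 and 3 at the top.

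DBP is an activator of metabolic target genes and itself a direct output of the clock. Its median was 32.3 CPM in pituitary, 25.9 in fat, 22.2 in liver and 9.08 in muscle. Unlike the other members it was lowest in muscle, in all 10 animals against liver (log2 fold change -1.46, SE 0.25, adjusted p = 3.56e-06), fat (-1.39, SE 0.25, adjusted p = 8.67e-06) and pituitary (1.54 from muscle to pituitary, SE 0.25, adjusted p = 1.50e-06). Liver, fat and pituitary did not differ beyond their spread. In liver, cows 1 to 5 had 132, 227, 134, 9.83 and 19.96 CPM of DBP and bulls 1 to 5 had 24.5, 11.8, 12.3, 12.3 and 45.2. In fat, the cows had 74.4, 119, 64.7, 25.8 and 12.4 CPM and the bulls 15.6, 17.4, 26.0, 19.3 and 64.1. The same 3 cows were highest in both tissues, followed by bull 5. In muscle, the values were 35.7, 47.6, 31.5, 5.02 and 6.84 CPM in the cows and 9.55, 7.66, 6.61, 8.61 and 18.0 in the bulls. In pituitary, they were 64.6, 59.7, 56.8, 18.6 and 30.4 CPM in the cows and 34.1, 29.0, 27.5, 23.3 and 42.1 in the bulls. In every tissue cows 1 to 3 came first and bull 5 next, while cows 4 and 5 lay within or below the range of bulls 1 to 4.

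BHLHE41 encodes a repressor that competes for the sites ARNTL and CLOCK bind. It had the widest contrast between tissues, with a median of 61.0 CPM in muscle, 20.1 in pituitary, 11.2 in fat and 5.70 in liver. Muscle was above liver in all 10 animals by a log2 fold change of 3.17 (SE 0.32, adjusted p = 6.96e-10) and above fat by 2.69 (SE 0.32, adjusted p = 2.51e-08), and pituitary was above liver by 1.83 (SE 0.32, adjusted p = 1.06e-05) and above fat by 1.34 (SE 0.32, adjusted p = 0.000587). Pituitary was below muscle in 9 animals (-1.34, SE 0.31, adjusted p = 0.000462). Liver and fat did not differ beyond their spread (0.49, SE 0.32, adjusted p = 0.207). In muscle, cows 1 to 5 had 183, 104, 313, 8.72 and 23.4 CPM and bulls 1 to 5 had 61.0, 84.4, 49.98, 61.1 and 42.7. The cows took both ends of the range and the bulls its middle.

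NFIL3, the repressor that opposes DBP at shared targets, was lowest in pituitary, with a median of 15.0 CPM against 106 in muscle, 63.6 in fat and 62.7 in liver. The log2 fold change to pituitary was -2.35 from liver (SE 0.33, adjusted p = 5.05e-07), -2.28 from fat (SE 0.33, adjusted p = 9.66e-07) and -2.77 from muscle (SE 0.33, adjusted p = 5.86e-08). The first 2 of these held in all 10 animals and the last in 9, the exception being a cow. Muscle, fat and liver did not differ in NFIL3 beyond their spread. Muscle held the widest spread of any member in any tissue, at 81.8-fold. Cows 1 to 5 had 13.5, 7.01, 8.25, 182 and 110 CPM there and bulls 1 to 5 had 573, 212, 102, 191 and 58.2. Cows 1 to 3 lay below every other animal. In liver the cows had 54.2, 34.1, 42.8, 57.9 and 63.6 CPM and the bulls 107, 61.8, 64.9, 137 and 80.0, an overlap that rested on cow 5 and bull 2.

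These tissue contrasts depended little on the scaling. The median log2 fold change of all genes from liver to fat was 0.12 with TMM factors and -0.0037 with DESeq2's size factors, and no called contrast of a clock gene changed direction with DESeq2 or with the relative log expression (RLE) factors. Without the liver library of bull 3, the number of members called in each contrast did not change.

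The sexes were compared within each tissue with edgeR's likelihood ratio test and sex as the only term, and over all tissues with sex and tissue as terms. Within a tissue, none of the 7 genes was called, while the test called 0.175% of all genes in liver (0.464% without the library of bull 3), 0.114% in fat, 0.517% in muscle and 0.745% in pituitary. At an unadjusted p below 0.05, the same test counted 4, 2, 2 and 2 members in these tissues, against 7.45%, 6.88%, 11% and 9.27% of all genes. The quasi-likelihood test also counted 4, 2, 2 and 2 members, against 6.64%, 5.86%, 9.94% and 8.62% of all genes, and called no member and 0.00761%, 0.0228%, 0.0532% and 0.0913% of all genes. DESeq2 counted 4, 2, 1 and 2 at an unadjusted p below 0.05 and called no member, against 0.152%, 0.228%, 0.677% and 1.02% of all genes called and 6.45%, 7.41%, 10.2% and 9.42% at an unadjusted p below 0.05. Without the fat library of bull 5 no member was called in fat, against 0.137% of all genes. PER2, NR1D1, DBP and BHLHE41 had lower fitted levels in bulls than in cows in all 4 tissues, and NFIL3 had higher ones in all 4. The median over the 7 members of the log2 fold change from cows to bulls was -0.37, -0.57, -0.51 and -0.44 in the order liver, fat, muscle and pituitary, against 0, -0.06, -0.04 and 0 over all genes.

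**Figure D2:**
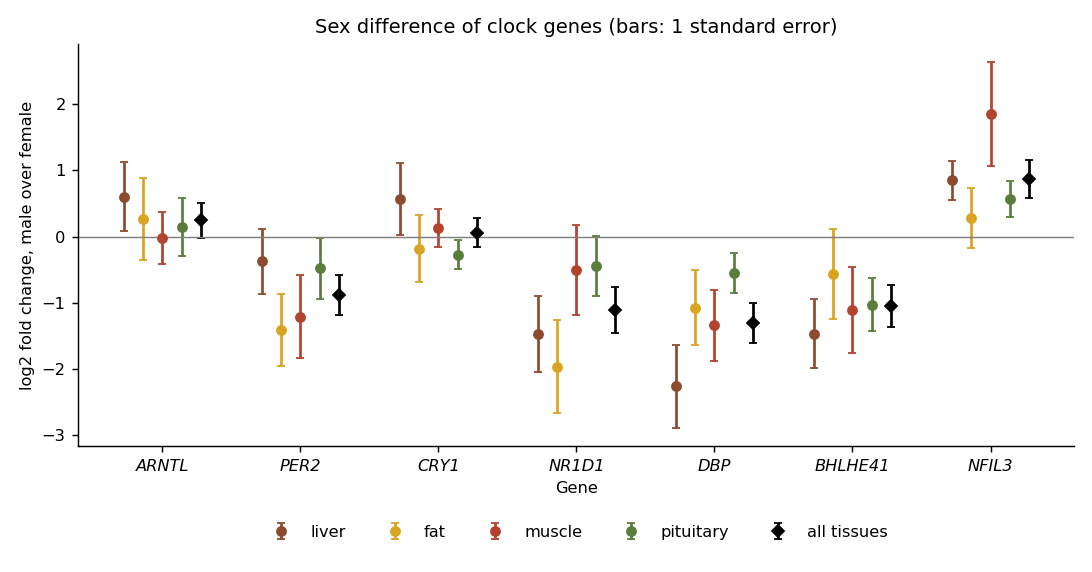
Log2 fold change from cows to bulls of each clock gene in each tissue (circles, 5 against 5 libraries) and over all tissues (diamonds, 40 libraries), with bars of 1 standard error. DBP lay below 0 in all 4 tissues, from -0.55 in pituitary to -2.26 in liver, and NFIL3 above 0 in all 4, from 0.28 in fat to 1.85 in muscle.

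By the likelihood ratio test with all libraries, DBP in liver had the smallest adjusted p within a tissue. This order depended on the test, since by the quasi-likelihood test the smallest was that of DBP in muscle (adjusted p = 0.426), by DESeq2 also that of DBP in muscle (0.241), and without the liver library of bull 3 NFIL3 in liver had 0.219. The mean of DBP in liver was 104.6 ± 90.5 CPM in cows and 21.2 ± 14.5 in bulls (SD, n = 5 each), a log2 fold change of -2.26 (SE 0.63, adjusted p = 0.143 by the likelihood ratio test in edgeR, 0.583 by the quasi-likelihood test). Without the library labelled liver of bull 3 the fold change was -2.14 (SE 0.67, adjusted p = 0.222). The call turned on single animals: DBP in liver passed without cow 4 (adjusted p = 0.00175), without cow 5 (0.0180) or without bull 5 (0.0392). In muscle, DBP and NFIL3 both passed without cow 4 (0.0211 and 0.0196). NFIL3 in muscle was 64.3 ± 79.2 CPM in cows and 227 ± 203 in bulls, a log2 fold change of 1.85 (SE 0.78, adjusted p = 0.333), and NR1D1 in fat was 53.5 ± 45.03 CPM in cows and 13.7 ± 6.39 in bulls, with -1.96 (SE 0.70, adjusted p = 0.473) and -1.85 (adjusted p = 0.4999) without the fat library of bull 5. NFIL3 in fat was 0.43 without that library (adjusted p = 0.847).

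Over all tissues, DBP was lower in bulls and was the only member called, against 1.35% of all genes called lower and 1.69% called in either direction. Its log2 fold change was -1.31 (SE 0.30, adjusted p = 0.00861 by the likelihood ratio test, 0.0422 by the quasi-likelihood test). The quasi-likelihood test called 0.586% of all genes and no other member. Without the liver library of bull 3 these adjusted p-values of DBP were 0.0173, where 1.34% of all genes were called, and 0.0695. Without the fat library of bull 5 the log2 fold change was -1.44 (adjusted p = 0.00255 by the likelihood ratio test), and 1.65% of all genes were called. DESeq2 called DBP and BHLHE41 (adjusted p = 0.00637 and 0.0446), against 2.12% of all genes. By the likelihood ratio test 4 further members were not called: BHLHE41 (-1.05, SE 0.31, adjusted p = 0.0535), NR1D1 (-1.10, SE 0.35, adjusted p = 0.0777), NFIL3 (0.88, SE 0.29, adjusted p = 0.0859) and PER2 (-0.88, SE 0.30, adjusted p = 0.104). The largest adjusted p were those of ARNTL (0.25, SE 0.26, adjusted p = 0.660) and CRY1 (0.06, SE 0.22, adjusted p = 0.922). The study singled out PER2, NR1D1, DBP, NFIL3 and BHLHE41 from these samples, so the results for them are not independent evidence. It reported all of them as significant over all tissues, whereas of these only DBP was called here by the likelihood ratio test. Over all genes, too, the study called more with this model than the 222 called here. The cause of this difference was not tested. In the study's quantitative PCR in cattle, DBP differed between the sexes in muscle and over all tissues, but not significantly in liver, fat or pituitary. No member was called for an interaction of sex and tissue, against 0.335% of all genes, and none had an unadjusted p below 0.05 there, against 8.58%. The smallest adjusted p was that of DBP (0.852 by edgeR's likelihood ratio test). The quasi-likelihood test called no gene for the interaction, with 0 members and 7.01% of all genes at an unadjusted p below 0.05.

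The call of DBP over all tissues treats the 40 libraries as independent, although each animal gave 4. With the animal as a random block in limma-voom, no member was called, and the adjusted p of DBP was 0.388 (log2 fold change -0.98, SE 0.35), or 0.487 without the liver library of bull 3. The test called 0.0608% of all genes, and the member with the smallest p was NFIL3 (1.15, SE 0.36, adjusted p = 0.298). This fit changed the test as well as adding the block, and no limma-voom fit without the block was made. It used 1 correlation within animals for all genes, 0.104, which is below the share of the spread of DBP between animals given below. The part of the block alone in the lost call of DBP was not tested. With each animal reduced to 1 value, its mean over tissues of the deviation from the tissue mean of log2(CPM + 1), PER2 had the smallest p of the 7 by a two-sided exact permutation test over all splits of the animals into 5 and 5. The bulls' mean of PER2 was lower by 0.86 on this scale (exact p = 0.0397, adjusted p = 0.600 over all genes), with the cows between 0.21 and 0.99 and the bulls between -1.28 and 0.61, and by 0.89 without the liver library of bull 3 (exact p = 0.0397). An unadjusted exact p below 0.05 was found for 7.7% of all genes. The splits of the animals are too few for any gene to pass this test after adjustment over all genes. DBP differed by -0.97 (exact p = 0.151) and NFIL3 by 1.08 (exact p = 0.0714) on the same scale. Leaving out 1 animal at a time in the fit over all tissues, DBP remained called in 4 of 10 fits, with log2 fold changes between -1.67 and -0.97 and adjusted p between 6.60e-05 and 0.109.

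Much of the spread of most members lay between animals. After the means of each sex and tissue were removed, the share of the remaining spread that lay between animals (the intraclass correlation over 40 libraries) was 0.764 for DBP, 0.738 for NR1D1, 0.704 for ARNTL, 0.565 for BHLHE41, 0.538 for CRY1, 0.349 for NFIL3 and 0.0966 for PER2. A share of at least 0.5 was thus seen for 5 of the 7 members, against 3.48% of the 8874 genes with a mean of at least 1 CPM in every tissue. Without liver, the share was 0.788 for DBP, 0.701 for NR1D1 and 0.670 for ARNTL.

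**Figure D3:**
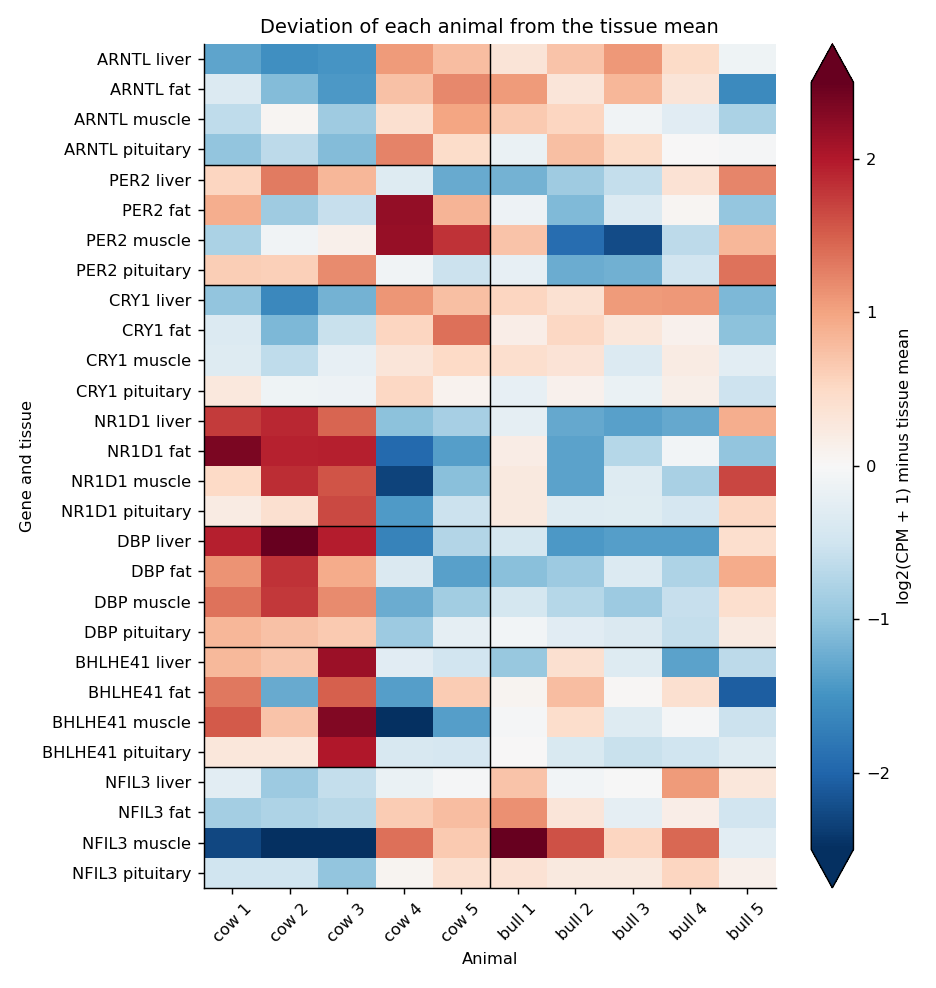
Deviation of each library from its tissue mean on the log2(CPM + 1) scale (colour), with 1 row for each of the 28 combinations of gene and tissue and 1 column for each animal. Cows 1 to 3 were high in DBP in all 4 tissues and low in NFIL3 in all 4, and cows 4 and 5 lay on the other side of the mean for DBP in all 4 tissues and for NFIL3 in fat, muscle and pituitary but not in liver.

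Cows 1 to 3 often lay together at an end of the range. They held the 3 highest values in 9 of the 28 combinations of gene and tissue and the 3 lowest in 6. The highest ones were DBP in all 4 tissues, NR1D1 in liver and fat, and BHLHE41 in liver, muscle and pituitary, and the lowest ones were NFIL3 in all 4 tissues and ARNTL in liver and pituitary. Among genes with a mean of at least 1 CPM, cows 1 to 3 were the 3 highest for 7.01% in liver, 1.33% in fat, 7.37% in muscle and 10.3% for the pituitary, and the 3 lowest for 5.4%, 0.888%, 7.76% and 8.15% in the same order. These 3 cows were singled out after their values were seen. In the labels their animal numbers share the first 7 of 12 digits, while no other pair of animals shares more than 6, and what the digits stand for is not given in the sources used here. Their part in the sex differences above was not tested, since leaving all 3 out leaves 2 cows. Some sums of markers of other cell types and of the tissue itself moved with these cows. In muscle the summed level of 5 blood and leukocyte markers was 88.3, 81.1 and 121 CPM in cows 1 to 3 and at most 53.2 in the other animals, and in liver it was 423, 303 and 598 CPM, with 192 to 375 in the others. In pituitary the summed level of 6 pituitary markers was 81660, 125200 and 113600 CPM in cows 1 to 3 and at least 143600 in the others. In liver the summed level of 3 endothelium markers was 247, 265 and 297 CPM in cows 1 to 3 and at most 243 in the others. Not all sums followed these cows. The own markers of liver, fat and muscle did not set all 3 apart. In muscle the own sum was nonetheless low, at 95780, 89890 and 107800 CPM, with at least 106800 in the others. In liver it was lowest in cows 1 and 2 (119600 and 113300 CPM) but not low in cow 3 (213800). In fat the blood and leukocyte sum was highest in bull 2 (370 CPM), and in muscle the endothelium sum was lowest in cow 3 (455 CPM). From cows to bulls over all tissues, 1 of 5 blood and leukocyte markers was called lower and 1 of 6 pituitary markers higher by edgeR's likelihood ratio test, and in pituitary 1 of 3 fibroblast markers was called higher. The part of these markers in the results was not tested.

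The levels of an animal were compared between its tissues by Pearson's r of log2(CPM + 1) over the 10 animals, for 7 genes and 6 pairs of tissues. The r was positive in 39 of the 42 comparisons, with a median of 0.733, and reached 0.7 in 26. The share of all genes with an r of at least 0.7 was 2.86% between liver and fat, 5.88% between liver and muscle, 7.22% between liver and pituitary, 8.49% between fat and muscle, 1.85% between fat and pituitary and 6.77% between muscle and pituitary. None of the 42 passed after adjustment over all genes, the smallest adjusted permutation p being 0.0619, and 28 had an unadjusted permutation p below 0.05, against 10.8% of all genes over the 6 pairs of tissues. Without the library labelled liver of bull 3 the number at or above 0.7 was also 26, and the share of all genes was 4.5%, 7.9% and 9.3% for liver with fat, muscle and pituitary. Without the fat library of bull 5 it was 27, and the share of all genes was 3.98%, 12% and 3.24% for fat with liver, muscle and pituitary. Without the liver library of bull 3 and cows 1 to 3, 14 of 42 were at or above 0.7, with a median r of 0.602, and in the order of tissue pairs above 5.32%, 10%, 14.7%, 12.6%, 2.83% and 7.12% of all genes were.

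DBP had the highest r of the members, between 0.789 and 0.981, and reached 0.7 in all 6 pairs of tissues. Between liver and muscle its r was 0.981 (permutation p = 7e-05, adjusted p = 0.0644) and its Spearman's rho 0.927 (permutation p = 0.00039), and without the 2 animals farthest from the median r was 0.962. Without the liver library of bull 3 it was 0.980. Between liver and pituitary r was 0.957 (permutation p = 1e-05, the smallest these permutations can give, adjusted p = 0.0619), rho was 0.915 (permutation p = 0.00051), and r was also 0.957 without the 2 farthest animals. Over the 6 or 7 animals other than cows 1 to 3, and without the liver library of bull 3, DBP kept an r of 0.872 between liver and muscle, 0.911 between liver and pituitary and 0.833 between muscle and pituitary, but had 0.326 between fat and pituitary.

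NR1D1 reached 0.7 in all 6 pairs, between 0.713 and 0.879, and the highest was between muscle and pituitary (permutation p = 0.00048, adjusted p = 0.156, rho = 0.903 with permutation p = 0.00084), where r was 0.864 without the 2 farthest animals and 0.934 over the 7 animals other than cows 1 to 3. Once those cows and the liver library of bull 3 were left out, NR1D1 reached 0.7 in 3 pairs and its lowest r was 0.160, between liver and fat. ARNTL ranged from 0.605 to 0.916, the highest between liver and pituitary (permutation p = 0.00016, adjusted p = 0.114, rho = 0.891 with permutation p = 0.0012), with an r of 0.893 without the 2 farthest animals and 0.845 over 6 animals, but its r between fat and pituitary was 0.636 over all animals and 0.289 over 7. For NFIL3, which ranged from 0.555 to 0.891, the relation rested more on cows 1 to 3. Its r between muscle and pituitary was 0.888 over all animals (permutation p = 0.00171, adjusted p = 0.197) and 0.334 over the other 7, while fat and muscle had 0.891 and 0.792. BHLHE41 ranged from 0.412 to 0.838 and had no r above 0.474 once cows 1 to 3 were left out. CRY1 ranged from 0.376 to 0.833. PER2 stood apart, with -0.302 between liver and fat and -0.0389 between liver and muscle but 0.788 between liver and pituitary (permutation p = 0.0100, adjusted p = 0.267). Centring the values on each sex left 26 of 42 at or above 0.7.

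**Figure D4:**
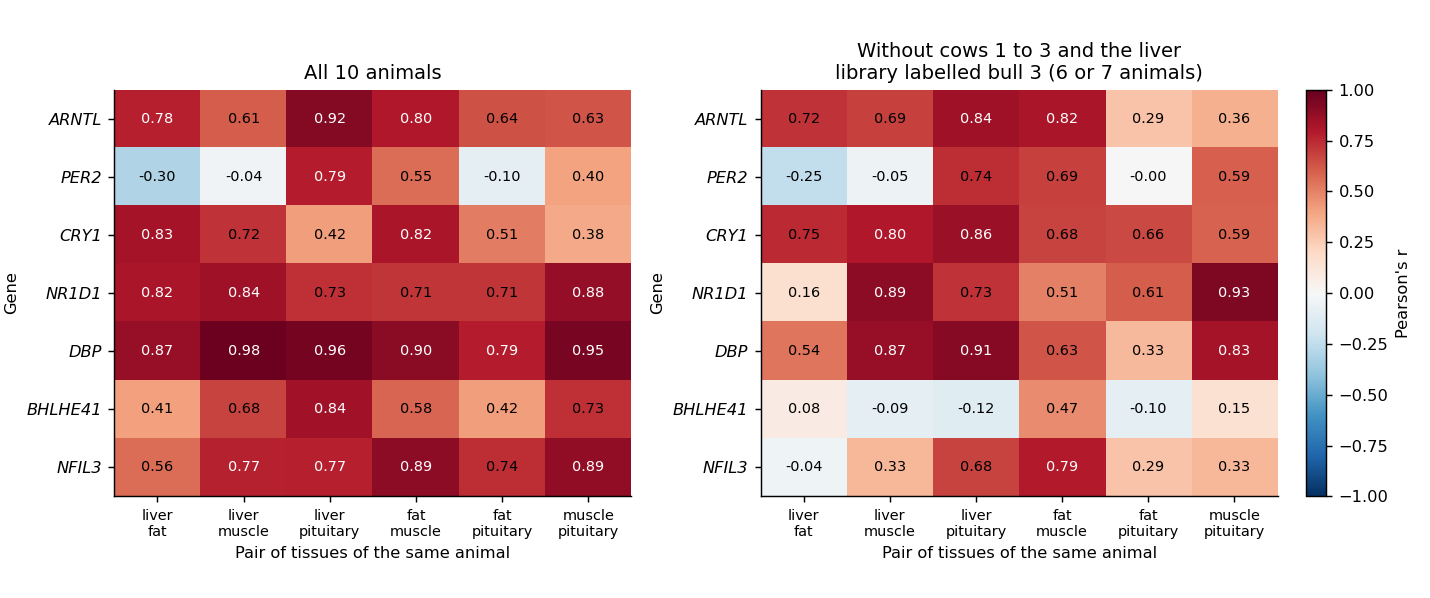
Pearson's r of each clock gene (rows) between pairs of tissues of the same animals (columns), over all 10 animals on the left and, on the right, without cows 1 to 3 and the liver library of bull 3. DBP had an r of at least 0.789 in every pair on the left, and PER2 was negative in 3 pairs.

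Within a tissue, the members were compared with each other over the 10 animals, in 21 pairs of genes. In liver, 12 pairs had an r of at least 0.7 or at most -0.7, 4 positive and 8 negative; fat had 7, muscle 7 and pituitary 8. Over the 7 members, 15.3% of all their relations with other genes passed this limit in liver, 11.8% in fat, 11.3% in muscle and 17.1% for the pituitary. In liver the share was 22.9% for ARNTL, 19.4% for DBP, 17.9% for CRY1 and 17.9% for NR1D1. After adjustment over all genes paired with the first member, 6 pairs passed in liver, none in fat, none in muscle and 1 in pituitary, against 2.54%, 2.62%, 2.24% and 6.14% of all relations, and 15, 9, 9 and 15 had an unadjusted permutation p below 0.05, against 22.8%, 18.8%, 17.7% and 25.5%. Without the fat library of bull 5, 10 pairs in fat passed the limit of 0.7 in size, against 9.79% of all relations.

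The 6 pairs in liver were all those among ARNTL, CRY1, NR1D1 and DBP. ARNTL and DBP had an r of -0.977 (permutation p = 0.00012, adjusted p = 0.0189, rho = -0.915 with permutation p = 0.00058), which was -0.957 without the 2 animals farthest from the median of ARNTL and -0.864 over the 6 animals left without cows 1 to 3 and the library labelled liver of bull 3. ARNTL and NR1D1, its repressor, had -0.954 (permutation p = 0.00014, adjusted p = 0.0196, rho = -0.879) and -0.824 over those 6. NR1D1 and DBP went together, with 0.977 (permutation p = 3e-05, adjusted p = 0.0213, rho = 0.879) and 0.947 over the 6. Without the library of bull 3, ARNTL had -0.977 with DBP and -0.947 with NR1D1, and NR1D1 had 0.977 with DBP. The 3 pairs with CRY1 passed with adjusted p of 0.0248 for ARNTL, 0.0364 for NR1D1 and 0.0364 for DBP, but CRY1 fell into a low set of 4 livers and a high set of 6, with a gap of 0.506 of its range on the log2 scale. Within the high set, which holds the library of bull 3, r was 0.484 with ARNTL, -0.425 with NR1D1 and -0.498 with DBP.

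In the other tissues the signs of the pairs among ARNTL, CRY1, NR1D1 and DBP were as in liver over all animals. NR1D1 and DBP had 0.706 in fat (0.827 without the library of bull 5), 0.856 in muscle and 0.811 in pituitary. ARNTL and DBP had -0.866 in fat, -0.621 in muscle and -0.902 in pituitary. DBP and NFIL3, the activator and the repressor of shared targets, had -0.896 in fat, -0.883 in muscle and -0.780 in pituitary, and -0.628 in liver. None of these passed the adjustment. Over the 7 animals other than cows 1 to 3, DBP and NFIL3 had -0.778 in fat, -0.301 in muscle and 0.0130 in pituitary, and NR1D1 and DBP had -0.141 in fat but 0.917 in muscle and 0.931 in pituitary. PER2 changed sign between tissues, with -0.741 against ARNTL in liver and -0.663 in pituitary but 0.499 in fat and 0.263 in muscle. The pituitary pair that passed, BHLHE41 and NFIL3 (-0.874, adjusted p = 0.0213), had -0.708 without the 2 farthest animals and -0.0228 without cows 1 to 3, and 24.9% of all genes reached the limit with BHLHE41 there.

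**Figure D5:**
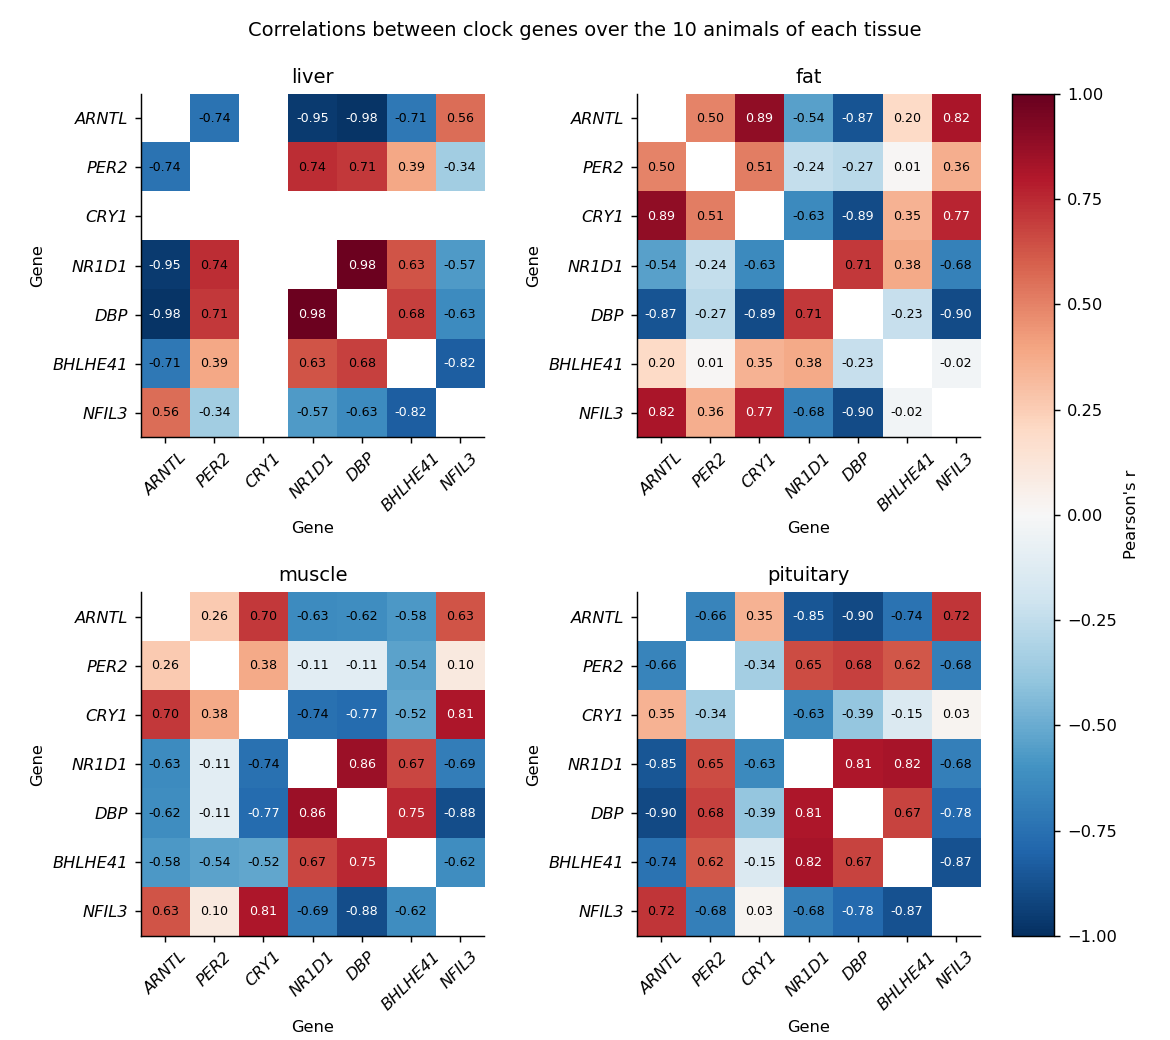
Pearson's r of log2(CPM + 1) between each pair of the 7 clock genes over the 10 libraries of liver, fat, muscle and pituitary; the library labelled liver of bull 3 and the fat of bull 5 are included. Blank cells off the diagonal are those of CRY1 in liver, whose values fell into separate sets. In liver, NR1D1 and DBP had an r of 0.977 and both went against ARNTL, with -0.954 and -0.977.

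The share of uniquely aligned reads that fell outside genes ranged from 33.2% to 54.0% and moved with some members. In pituitary, cows 1 to 3 had 49.4%, 46.7% and 52.1%, cows 4 and 5 had 38.9% and 35.3%, and bulls 1 to 5 had 34.0%, 41.2%, 36.2%, 33.2% and 46.9%. There, 4 of the 7 members had an r of at least 0.7 or at most -0.7 with it, against 29.4% of all genes. These were NFIL3 (-0.898, permutation p = 9e-05, adjusted p = 0.00591, rho = -0.879 with permutation p = 0.00151, and -0.792 without the 2 farthest animals), DBP (0.808, adjusted p = 0.0362, and 0.660 without the 2 farthest), PER2 (0.767, adjusted p = 0.0544, and 0.656 without them) and BHLHE41 (0.714, adjusted p = 0.0275, and 0.456 without them). In muscle it was DBP (0.728) and BHLHE41 (0.7499), against 25.6% of all genes, and BHLHE41 alone in liver (0.703, against 5.42% of all genes) and fat (0.731, against 5.29%). Without the 2 farthest animals, NFIL3 in pituitary was the only one of these 8 still past 0.7 in size. In liver, DBP, NR1D1 and ARNTL had 0.4505, 0.427 and -0.572 with it, and none of these passed at an unadjusted p of 0.05. The part of these reads in the correlations above was not tested.

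Other genes of the clock and its surroundings were examined as 4 lists with 46 genes, of which 40 are in the count tables. Of 7 further genes of the core loop, such as NPAS2, RORA, HLF and BHLHE40, none was called between the sexes in any tissue or over all tissues. BHLHE40, the close relative of BHLHE41, had 1.18 in liver (SE 0.39, adjusted p = 0.253, and 0.0857 without the library of bull 3), where BHLHE41 had -1.47 (SE 0.52, adjusted p = 0.326). The median log2 fold change of the list over all tissues was -0.07, against -0.04 over all genes.

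None of the 14 genes for the turnover and modification of clock proteins was called, with a median of -0.15 over all tissues. FBXL21, which marks cryptochromes for turnover, came closest (-0.84, SE 0.26, adjusted p = 0.0597). None of the 8 glucocorticoid responsive genes was called either. SGK1, a kinase induced by glucocorticoids, had 0.63 over all tissues (SE 0.28, adjusted p = 0.245), and MT2A, a metallothionein, had -2.18 in muscle (SE 0.64, adjusted p = 0.0907).

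Among 11 output genes under clock control, CYP7A1 was called and the other 10 were not. CYP7A1 encodes the rate-limiting enzyme of bile acid synthesis and was found almost only in liver, with at most 0.276 CPM in any library of another tissue. In liver, cows 1 to 5 had 409, 497.5, 436, 70.2 and 52.4 CPM, and bulls 1 to 5 had 13.2, 22.0, 82.7, 10.9 and 29.6. Cows 1 to 3 were again the highest, and the highest value of a bull was that of the library that went against its label. Without it the sexes did not overlap, as for 1.46% of genes with a mean of at least 1 CPM in liver. The log2 fold change from cows to bulls in liver was -3.14 (SE 0.62, adjusted p = 0.00448 by the likelihood ratio test, where 0.106% of all genes were called lower, 0.334 by the quasi-likelihood test), and without the library of bull 3 it was -3.92 (SE 0.57, adjusted p = 4.73e-06, and 0.0264 by the quasi-likelihood test). Over all tissues it was -2.70 (SE 0.57, adjusted p = 0.000635), and with the animal as a block in limma-voom it was -1.87 (adjusted p = 0.0861). The study had reported CYP7A1 from these samples in liver and over all tissues, so these results are not independent evidence. In its quantitative PCR in cattle, CYP7A1 did not differ significantly in liver or over all tissues, but it did in muscle and fat.

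The genes most like each member were found by r over the 40 libraries after the tissue means were removed, among 8874 genes with a mean of at least 1 CPM in every tissue. For ARNTL they were LRRC59 (0.803), ARF4 (0.761) and STAT3 (0.759), and for CRY1 STT3B (0.825), SLC33A1 (0.814) and LRRC59 (0.808). DBP was most like NADSYN1 (0.814), PIGV (0.811) and ZAP70 (0.791), and NR1D1 most like PIGV (0.782), KCTD6 (0.751) and ZNF362 (0.746). LRRC59 was thus near the top for both ARNTL and CRY1, and PIGV for both DBP and NR1D1, while LRRC59 was the gene with the most negative r with DBP (-0.857). PER2 was most like MED12 (0.829), BHLHE41 most like SMC3 (0.888), and NFIL3 most like IFRD1 (0.827). Without the liver library of bull 3, MTA2 (0.753) took the place of STAT3 for ARNTL, and the genes named for the other 6 members were the same. The 40 libraries come from 10 animals, so these values carry no p.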

How the data were processed

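Per the labels and the study's methods, the authors used Trimmomatic on paired-end reads, mapped them to bosTau7 by TopHat2 with Bowtie2, handled alignments with SAMtools, and counted uniquely mapped reads per annotated gene with HTSeq; the counting mode and strand setting are not given in the sources used here. The deposited values are raw read counts per gene, 1 table per sample, without normalization. Reads without a gene name (0.114% to 2.69% of a library's reads on genes) were not used. A gene was tested if any sample had a read of it (13148 of 13570). The members and gene lists were chosen with earlier results of these data known.

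Counts were scaled by TMM factors in edgeR 4.0.16 (R 4.3.3). Sexes were compared by glmFit and glmLRT, as in the study, within tissues and over all 40 samples with tissue as a term, and tissues by glmQLFTest with the animal as a block, with Benjamini-Hochberg adjustment over all tested genes and a threshold of 0.05. The block rests on the labels, which give the 4 tissues of an animal the same number. Correlations used log2(CPM + 1), 100000 permutations of the animals, two-sided, and adjustment over all genes with a mean of at least 1 CPM (Python 3.11.15). Within a tissue, replicates were separate animals by their labels. Alternatives were the quasi-likelihood test, DESeq2 1.42.0, RLE factors, filterByExpr, limma-voom with the animal as a block, 1 value per animal, and leaving out animals, the liver library of bull 3 or the fat library of bull 5. The fits were tested on simulated data. All 7 members are named; of other lists, up to 4 called genes per list and comparison by p, otherwise the 2 with the smallest p (values are given for some of these), and the 3 most like genes per member. No sequences are shown.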

Additional observations from a re-analysis of the deposited data

Results flagged for a closer look

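In each of 56 groups of 5 animals of 1 sex, the highest and the lowest library were compared with the rest on the log2(CPM + 1) scale, and 4 stood apart by Dixon's gap criterion. Chance sets apart about 1 in 20 groups, so that a few are to be expected among 56.

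Among the bulls' fat libraries, bull 5 was the lowest and far from the others for 3 genes. It had 2.86 CPM of ARNTL against 13.3 to 23.3 in the other bulls, 8.19 CPM of CRY1 against 19.2 to 25.6, and 1.47 CPM of BHLHE41 against 9.52 to 16.7. The same library had little RNA of the Y-linked genes (USP9Y 1.78 CPM against at least 28.1) and the highest summed liver markers of the fat libraries (473 CPM against at most 250). Whether these go together was not tested. In pituitary, cow 3 was far above the other cows in BHLHE41, with 106 CPM against 19.1 to 31.7.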

How the results depend on the processing

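Over all tissues, 1 member (DBP) was called between the sexes, and 2 were with DESeq2, 2 with filterByExpr, and 0 with the quasi-likelihood test without the liver library of bull 3. With the animal as a block in limma-voom, which changed the test as well, 0 were called (0 also without that library). With 1 value per animal 0 were called (0 also without the liver library of bull 3). That count says nothing about DBP, since the splits of the animals are too few for any gene to pass the adjustment. Before adjustment, DBP had a p of 0.151 by the exact permutation test (0.167 without that library). Leaving out 1 animal, 0 to 4 members were called: DBP was lost without cow 1, cow 2 or any of bulls 1 to 4, and 4 members were called without cow 4, cow 5 or bull 5. Members called numbered 0 to 1 in liver (1 without cow 4, cow 5 or bull 5) and 0 to 2 in muscle (2 without cow 4). The cause was not tested. Cows and bulls share numbers but are different animals, so no pairing of the sexes was made. Tissues are paired by animal: without this block, CRY1 and NR1D1 between liver and muscle (adjusted p = 0.117 and 0.0751), NR1D1 between fat and muscle (0.0509), and ARNTL and DBP between muscle and pituitary (0.0570 and 0.0566) were not called, while NFIL3 was between muscle and liver (0.0414) and muscle and fat (0.0481), by edgeR's quasi-likelihood test.

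All differences between groups that changed direction were ones not called. On the log2 scale, without the block NFIL3 was 0.025 from liver to fat, DBP -0.71 from liver to pituitary and -0.18 from fat to pituitary, and PER2 -0.054 and CRY1 -0.078 from fat to pituitary. PER2 was -0.033 there with filterByExpr. Without the liver library of bull 3, CRY1 was 0.031 and DBP -0.021 from liver to pituitary, and without the fat library of bull 5 CRY1 was 0.012 from cows to bulls in fat. Leaving out 1 animal, the change from cows to bulls ranged from -0.40 to 0.33 for CRY1 and -0.040 to 0.55 for NFIL3 in fat, -0.21 to 0.30 for ARNTL in muscle, -0.059 to 0.74 for ARNTL and -0.68 to 0.18 for NR1D1 in pituitary, and -0.10 to 0.29 for CRY1 over all tissues. From liver to fat it ranged from -0.16 to 0.36 for PER2, -0.23 to 0.070 for DBP and -0.17 to 0.050 for NFIL3, from liver to pituitary from -0.30 to 0.050 for CRY1 and -0.057 to 0.29 for DBP, and from fat to pituitary from -0.25 to 0.26 for PER2, -0.0070 to 0.30 for CRY1 and -0.31 to 0.087 for NR1D1.

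Of 42 correlations between tissues, 26 reached 0.7, but 16 by Spearman's rho. Leaving out cows 1 to 3 and the liver library of bull 3, chosen after seeing the data, gave 14 of 42 at or above 0.7, and within tissues 7 in liver, 3 in muscle and 5 in pituitary. In muscle there were also 4 with CPM over library size, 4 by Spearman's rho and 4 without the 2 farthest animals. Without cows 1 to 3 and that library, r turned to 0.434 for ARNTL and BHLHE41 in liver, -0.141 for NR1D1 and DBP in fat, -0.541 for ARNTL and NFIL3 and 0.0130 for DBP and NFIL3 in pituitary, and -0.125 for BHLHE41 between liver and pituitary. Leaving out 1 animal, 7 to 14 pairs in pituitary passed, 14 without bull 5. The lowest count of a member in a library was 19 reads.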
